A study of Mus musculus with 9 samples.

Results

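The 5 growth factor genes Csf1, Vegfa, Tgfb1, Hbegf and Areg were followed in mouse mast cells before and after activation through the IgE receptor, and after activation that followed taxinine. They were selected by gene symbol, and all 5 were among the 15109 genes of the deposited tables. The cells were wild-type C57BL/6 bone marrow-derived mast cells (BMMC), grown for at least 4 weeks in DMEM with 30% WEHI-3 medium, which supplies interleukin 3, and 20% FBS. Control cells were untreated. BSA cells had been sensitised with anti-DNP-IgE and then received DNP-BSA, the antigen that cross-links this antibody on the cell surface. Taxinine cells were sensitised and stimulated in the same way with 1 h of pretreatment with taxinine, a taxane from yew trees, before the antigen. Each group had 3 poly(A)-selected, strand-specific libraries, and the title of the series frames the comparison around an interleukin 17 and tumour necrosis factor programme in mast cells. The labels give no taxinine dose, antigen exposure time or vehicle and list no taxinine-alone group, so an effect of a solvent cannot be told apart from that of taxinine. They do not say whether the 3 samples of a group came from separate animals or cultures, so the p-values reflect only how far these samples vary, and that variation may be technical.

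Mast cells sit near vessels, nerves and epithelia, and besides granule contents they secrete growth factors that act on those neighbours. Csf1 is the main survival and differentiation factor of monocytes and macrophages and signals through the receptor kinase Csf1r. Vegfa drives the growth and leakiness of blood vessels, through receptor kinases and neuropilin coreceptors on endothelium. Tgfb1 is secreted in a latent form that has to be activated before it binds its receptor pair, Tgfbr1 and Tgfbr2, which signal through SMAD proteins. Hbegf and Areg are ligands of the epidermal growth factor (EGF) receptor family, made as membrane proteins and released by sheddases such as Adam17.

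Total counts ranged from 8975371 to 14116976 per library, with the lowest total in Taxinine replicate 1. Levels below are counts scaled to a common library size (CPM), with totals adjusted by TMM factors (trimmed mean of M values), given as mean ± SD over 3 libraries, and differences are log2 fold changes ± SE with adjusted p-values from edgeR's quasi-likelihood test. Scaling by plain totals lowered the median gene by 0.23 on the log2 scale in BSA against Control and by 0.21 in Taxinine against Control, and fold changes against Control are to be read relative to that shift. All 14 mast cell markers on the list were measured, and their summed level was 50569 to 52343 CPM in Control, 55200.5 to 57894 in BSA and 54955 to 56473 in Taxinine. Of 16 macrophage markers 14 were measured, with sums of 146 to 149.7 CPM in Control, 155 to 169 in BSA and 131 to 141 in Taxinine. Within that list Csf1r, Mertk, C1qb and C1qc each averaged at most 1.02 CPM in any group, whereas Adgre1 averaged 44.2 CPM in Control and 49.8 in BSA, Cx3cr1 68.1 and 66.4, Cd68 14.7 and 17.1, and Lyz2 14.6 and 21.8. These genes were picked after their values were seen. Of 12 fibroblast markers 3 were measured, summing to at most 1.39 CPM. Of 10 endothelial markers 4 were measured, with sums of 587 to 595 CPM in Control, 652 to 668 in BSA and 593 to 615 in Taxinine. The vessel-specific genes Kdr and Flt1 of that list were not among the deposited genes. Sums of the basophil and neutrophil and of the lymphocyte and dendritic cell markers are given with the taxinine comparison below.

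The genes lie at separate loci of GRCm38, and in the GENCODE M21 annotation none of them overlaps another gene. Csf1 spans chromosome 3 from 107741048 to 107760469 on the minus strand, and Vegfa spans chromosome 17 from 46016993 to 46032369, also on the minus strand. Tgfb1 lies on the plus strand of chromosome 7 from 25687002 to 25705077. Areg lies on the plus strand of chromosome 5 from 91139599 to 91148432. Their combined exon lengths were 5.28 kb for Csf1, 4.29 kb for Vegfa, 5.04 kb for Tgfb1 and 1.22 kb for Areg. Counts were taken over the gene as a whole, so splice forms are not separated.

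Upstream sequence is shown for the members found in the RefSeq promoter table (GRCm38.p6), 4 of 5, because these genes rose together on activation. Each line gives the 250 bases before the annotated start (for Vegfa, the first of 2), 5′ to 3′ on the strand of the gene. The windows are chr3:107760470-107760719 on the minus strand for Csf1, chr17:46032378-46032627 on the minus strand for Vegfa, chr7:25686752-25687001 on the plus strand for Tgfb1 and chr5:91139349-91139598 on the plus strand for Areg. Capitals mark matches on either strand to 6 short motifs, which are the kappa-B letters (GGG, then any 2 letters, then TTT and CC), the cyclic AMP response element TGACGTCA, the AP-1 letters TGANTCA, the TATA box TATAAA, the GC box GGGCGG and the NFAT core GGAAA.
Csf1: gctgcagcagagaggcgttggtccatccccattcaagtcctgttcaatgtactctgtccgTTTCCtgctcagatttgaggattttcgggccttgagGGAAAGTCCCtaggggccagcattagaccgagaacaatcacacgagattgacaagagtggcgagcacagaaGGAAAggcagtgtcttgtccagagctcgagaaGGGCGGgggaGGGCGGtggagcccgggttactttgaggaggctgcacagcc
Vegfa: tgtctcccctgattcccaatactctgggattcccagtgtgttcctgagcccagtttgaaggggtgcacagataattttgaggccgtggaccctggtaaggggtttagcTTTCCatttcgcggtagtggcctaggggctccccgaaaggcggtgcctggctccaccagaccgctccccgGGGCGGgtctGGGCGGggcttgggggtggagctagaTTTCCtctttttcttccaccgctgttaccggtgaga
Tgfb1: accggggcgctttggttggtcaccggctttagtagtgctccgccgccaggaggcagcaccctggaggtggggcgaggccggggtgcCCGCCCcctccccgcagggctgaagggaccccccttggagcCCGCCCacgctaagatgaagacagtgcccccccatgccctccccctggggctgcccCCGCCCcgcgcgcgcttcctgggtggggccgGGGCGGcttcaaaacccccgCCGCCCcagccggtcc
Areg: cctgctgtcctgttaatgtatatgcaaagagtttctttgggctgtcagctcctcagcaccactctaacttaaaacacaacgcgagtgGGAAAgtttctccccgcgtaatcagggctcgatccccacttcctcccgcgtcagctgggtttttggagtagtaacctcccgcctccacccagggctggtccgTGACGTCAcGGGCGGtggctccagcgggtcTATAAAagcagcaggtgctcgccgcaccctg
The Csf1 window held 1 kappa-B match on the opposite strand, from base 154 to base 145 before the start, which overlaps 1 of its 3 NFAT core matches. It also held 2 GC boxes within the last 51 bases. The Vegfa window held 2 GC boxes and 2 NFAT cores, and no match to the hypoxia core ACGTG. The RefSeq table gives Vegfa a second start, whose window, chr17:46025164-46025413, lies inside the annotated span of the gene and is not printed. That window held 1 GC box, 1 NFAT core and 1 hypoxia core match, from base 211 to base 207 on the opposite strand. Being inside the gene, it is not sequence upstream of the whole gene. The Areg window held a cyclic AMP response element from base 61 to base 54 before the start, a TATA box from base 31 to base 26, 1 GC box and 1 NFAT core. The Tgfb1 window held 5 GC boxes and none of the other 5 marked motifs. The letters GCGNGGGCG of the EGR factors, not in capitals as such, matched once in the Tgfb1 window, from base 122 to base 114 on the opposite strand, where it overlaps a GC box. Over 32851 promoter windows of this length, kappa-B matched in 1.41%, the cyclic AMP response element in 1.55%, AP-1 in 6.75%, the TATA box in 12.4%, the GC box in 32.7%, the NFAT core in 55.6%, the hypoxia core in 16.6% and the EGR letters in 4.7%. These matches describe letters in the windows and say nothing of whether a factor was bound.

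All 5 growth factor genes were higher in antigen-activated than in untreated mast cells, and all were called at an adjusted p under 0.05. Over all 15109 genes, 16.2% were called higher in this comparison and 34.0% in either direction. The sizes differed widely, from 13.3-fold for Csf1 and 6.11-fold for Areg through 3.50-fold for Vegfa and 2.64-fold for Hbegf to 1.47-fold for Tgfb1. In all 5 genes the lowest BSA library was above the highest Control library, which held for 20.2% of all genes in this direction. In bulk RNA, a change in the number of cells that express a gene and a change in RNA per cell cannot be told apart. BSA cells differ from Control cells in both IgE and antigen, and no group received IgE alone. The parts of IgE and antigen therefore cannot be separated here. Changes described as occurring with antigen or on activation are those of both together.

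**Figure D1:**
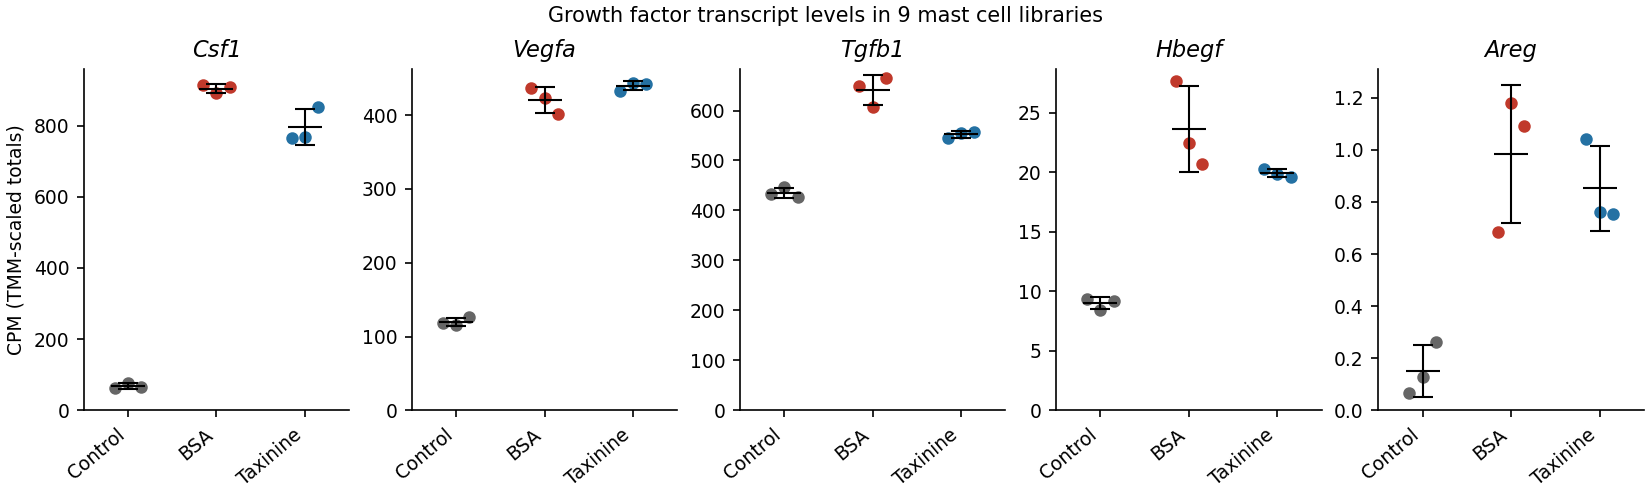
Levels of Csf1, Vegfa, Tgfb1, Hbegf and Areg in the 9 libraries. Each point is 1 library, and the lines show mean ± SD (n = 3) in CPM with TMM-scaled totals, on an axis from 0 for each gene. Control points lie below all BSA and Taxinine points in each panel, and the BSA and Taxinine points overlap for Vegfa and Areg.

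Csf1 was at 61.9, 76.7 and 65.4 CPM in Control replicates 1 to 3. It was at 913, 891 and 908 CPM in the BSA replicates. The 3 activated libraries lay within a narrow band, far from the untreated ones. The change was 3.73 ± 0.06 on the log2 scale (95% interval 3.62 to 3.84, adjusted p = 2.13e-40), which placed Csf1 at rank 56 of the 15109 genes by signed fold change. These levels rested on 3135 Csf1 counts in Control and 33307 in BSA.

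Vegfa was at 119, 115 and 126 CPM in Control and at 437, 423 and 401 CPM in BSA. The groups were well apart. The change was 1.81 ± 0.05 (1.72 to 1.90, adjusted p = 4.77e-32).

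Tgfb1 was already abundant in untreated cells, at 433, 446 and 426 CPM, and reached 649, 607 and 665 CPM in BSA. Its change of 0.56 ± 0.04 (0.48 to 0.64, adjusted p = 2.5e-15) had the smallest size of the 5, at rank 1674 by signed fold change. Under scaling by plain totals it was 0.33 ± 0.04 (adjusted p = 4.62e-09), against the median shift of -0.23 of all genes under that scaling. The direction of the Tgfb1 change was the same under every alternative run.

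The EGF family ligands were at lower levels. Hbegf spans chromosome 18 from 36504927 to 36515805 on the minus strand, with 4.83 kb of exon. It was at 9.39, 8.45 and 9.22 CPM in Control. In BSA it was at 27.7, 22.5 and 20.7 CPM, so that its BSA libraries spread more widely than its Control libraries. The change was 1.40 ± 0.10 (1.19 to 1.60, adjusted p = 2.65e-15).

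Areg was close to the detection limit in untreated cells, where 1, 2 and 4 reads were counted. With antigen 9, 15 and 12 reads were counted. The 3-count floor of a library corresponds to 0.213 to 0.219 plain CPM in the Control group, so 2 of the 3 Control values lie under it. The ratio of summed counts, 36 in BSA against 7 in Control at their library sizes, was 6.42 with an exact 95% interval of 2.82 to 17.1 that covers counting error only. The fitted change was 2.61 ± 0.55 (1.51 to 3.71, adjusted p = 0.000156). In limma on the deposited log2 values, where a constant of 1 is added to CPM, it was 0.72.

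**Figure D2:**
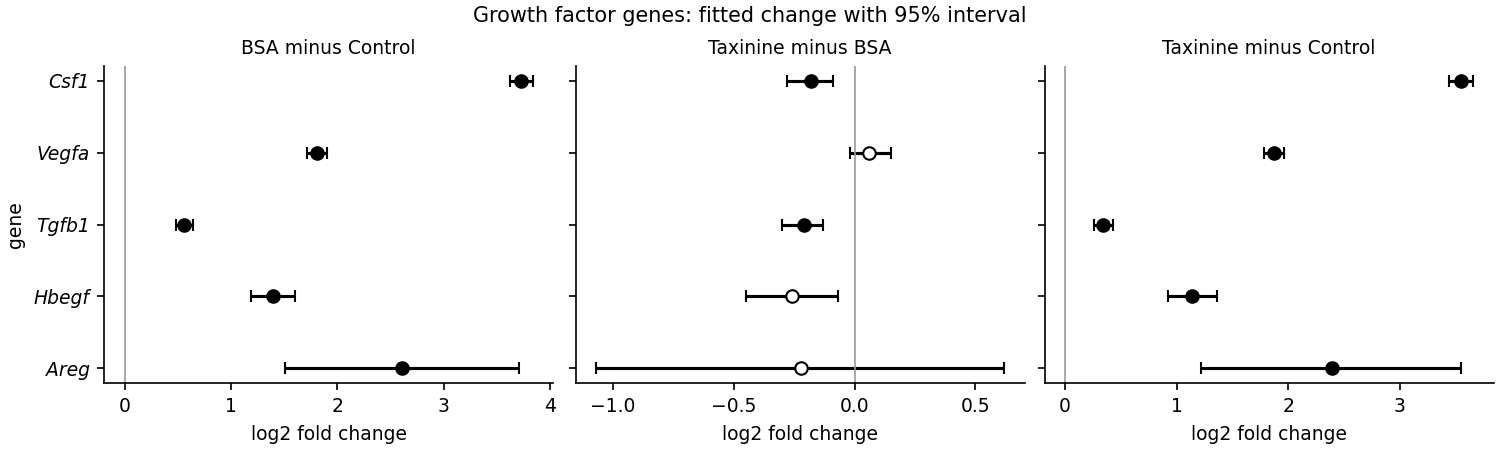
Fitted log2 fold changes of the 5 genes in each comparison. Points are edgeR estimates, bars are 95% intervals and filled points are called at an adjusted p under 0.05. All 5 points lie above 0 against Control, and in Taxinine minus BSA the filled points are Csf1 at -0.18 and Tgfb1 at -0.21.

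Levels per kilobase of exon allow the 5 transcripts to be set side by side. In Control the order was Tgfb1 at 86.3 ± 2.08 CPM per kb, Vegfa at 28.0 ± 1.33, Csf1 at 12.9 ± 1.47, Hbegf at 1.87 ± 0.104 and Areg at 0.125 ± 0.0823. No neighbouring pair of this order overlapped between libraries. In BSA, Csf1 stood first at 171 ± 2.16 CPM per kb, followed by Tgfb1 at 127 ± 5.94 and Vegfa at 98.2 ± 4.21. The same order held in Taxinine, with Csf1 at 151 ± 9.52, Tgfb1 at 109 ± 1.21 and Vegfa at 103 ± 1.40, where the lowest Tgfb1 library, at 108, lay just above the highest Vegfa library, at 104. In untreated cells 77.6% of 15106 genes with an exon length lay below Csf1, and in BSA 98.3% did. For Tgfb1 the share was 97.4% in Control and 97.7% in BSA. Hbegf rose from above 38.5% of genes to above 56.9%, and Areg from above 9.53% to above 28.6%, which remained in the lower part of the range.

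With taxinine pretreatment, the mean level of Csf1, Vegfa, Hbegf and Areg lay nearer to BSA than to Control. For Tgfb1 this turned with the scaling, since the changes against BSA and Control were -0.21 and 0.34 as reported but -0.19 and 0.14 under plain totals. Csf1 fell by 11.9% and Tgfb1 fell by 13.8% of the BSA level. Hbegf had a lower mean that missed the threshold, and Vegfa and Areg were not called. So 2 of 5 genes were called lower and none higher, where 4.12% of all genes were called lower, 2.86% higher and 6.98% in either direction. In 3 of the 5, Csf1, Tgfb1 and Hbegf, every Taxinine library lay below every BSA library, which held for 12.4% of all genes in this direction.

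Csf1 was at 766, 767 and 853 CPM in Taxinine, below the 891 to 913 CPM of the BSA libraries. Replicate 3 lay nearest to them. The difference was -0.18 ± 0.05 (-0.28 to -0.09, adjusted p = 0.00988). The call rested on the setting. It was lost in DESeq2 (-0.19, adjusted p = 0.162), in limma on the deposited log2 values (-0.16, adjusted p = 0.0656), without Taxinine replicate 1 (-0.16, adjusted p = 0.108) and without Taxinine replicate 2 (-0.16, adjusted p = 0.125), with the same direction in each.

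Tgfb1 was at 545, 555 and 556 CPM in Taxinine, against 607 to 665 CPM in BSA, and the Taxinine libraries lay close together. The difference was -0.21 ± 0.04 (-0.30 to -0.13, adjusted p = 0.000351). It remained called under all 16 alternatives, between -0.25 and -0.19.

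Hbegf was at 20.3, 19.9 and 19.6 CPM in Taxinine, just below the lowest BSA library at 20.7 CPM. The difference was -0.26 ± 0.09 (-0.45 to -0.07, adjusted p = 0.0928). BSA replicate 1, at 27.7 CPM, had much weight in it, since the difference was -0.13 (adjusted p = 0.561) without that library. Without BSA replicate 3 it was -0.34 and called, at an adjusted p of 0.0354.

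Vegfa was at 433, 444 and 442 CPM in Taxinine, which overlapped the 401 to 437 CPM of BSA. The difference was 0.06 ± 0.04 (-0.02 to 0.15, adjusted p = 0.447), so the interval does not reach the size of the Csf1 or Tgfb1 decrease. Areg had 9, 8 and 10 reads in Taxinine. The difference of -0.22 ± 0.42 had an interval from -1.07 to 0.62 (adjusted p = 0.834), too wide at this depth to detect a change of the size seen for Csf1 or Tgfb1. The ratio of its summed counts was 0.853 with an exact 95% interval of 0.498 to 1.45.

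The summed macrophage markers were lower in every Taxinine library than in every BSA library. The same held for the endothelial sums and for the basophil and neutrophil sums given below. Of the 14 macrophage markers 2 were called lower, where 4.12% of all genes were. Lyz2, a lysozyme of macrophages and granulocytes, was at 21.8 ± 1.78 CPM in BSA and 15.0 ± 1.42 CPM in Taxinine (-0.52 ± 0.10, adjusted p = 0.000218), and Cx3cr1, the fractalkine receptor, at 66.4 ± 2.85 and 52.9 ± 2.73 CPM (-0.33 ± 0.06, adjusted p = 0.000248). Basophil and neutrophil markers (4 of 12 measured) summed to 536 to 593 CPM in Control, 604 to 627 in BSA and 542 to 566 in Taxinine. Endothelial markers (4 of 10 measured) summed to 587 to 595, 652 to 668 and 593 to 615 CPM, and lymphocyte and dendritic cell markers (3 of 12 measured) to 40.5 to 45.2, 42.8 to 48.0 and 41.0 to 44.6 CPM. The part of these markers in the lower Csf1 and Tgfb1 levels was not tested. Taxinine replicates 1 and 2 also had the lowest total counts of the 9 libraries, 8975371 and 10945236, and the part of depth in these differences was not tested.

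**Figure D3:**
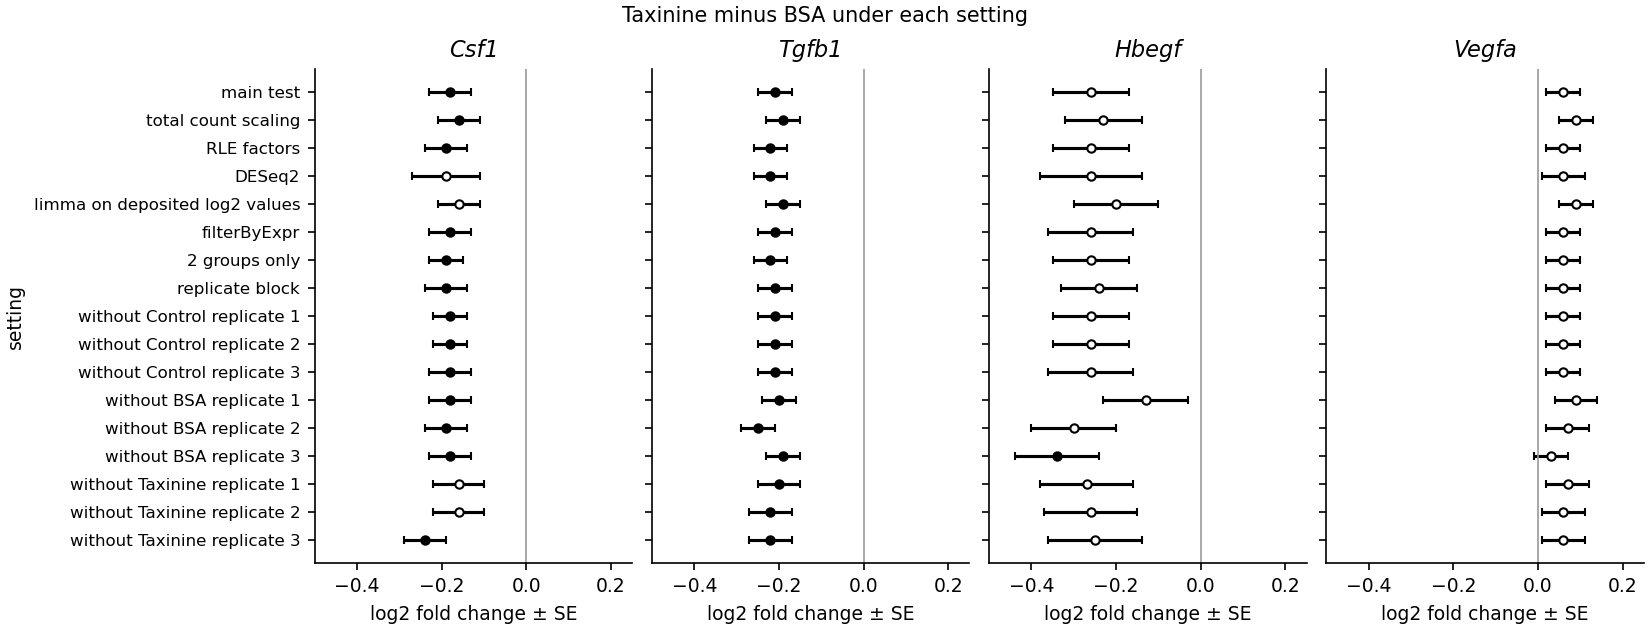
Taxinine minus BSA for Csf1, Tgfb1, Hbegf and Vegfa under the reported test and 16 alternatives. Points are log2 fold changes, bars are ± SE and filled points are called at an adjusted p under 0.05. Tgfb1 is filled in every row, Csf1 is open in 4 rows, Hbegf is filled in 1 and Vegfa is open throughout.

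Ratios of 2 genes within 1 library do not depend on the scaling of totals, and were chosen after the values had been seen. In Control there were 0.520, 0.666 and 0.518 Csf1 counts per Vegfa count. In BSA there were 2.09, 2.10 and 2.26, and in Taxinine 1.77, 1.73 and 1.93. The Taxinine values lay below the BSA values without overlap, at 0.841 of their level. Tgfb1 counts per Vegfa count were 1.48, 1.43 and 1.66 in BSA and 1.26, 1.25 and 1.26 in Taxinine, or 0.825 of the BSA level. For Hbegf per Vegfa the Taxinine ratio was 0.81 of that in BSA, again without overlap. The exact two-sided permutation p was 0.1 for each of these, which is the smallest that 3 against 3 libraries allow. Csf1 counts per Tgfb1 count were 1.41, 1.47 and 1.37 in BSA and 1.41, 1.38 and 1.53 in Taxinine. These overlapped, with a ratio of 1.02 and an exact permutation p of 0.7. All 12 ratio comparisons are in this family, and no adjusted p can fall below 0.1.

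**Figure D4:**
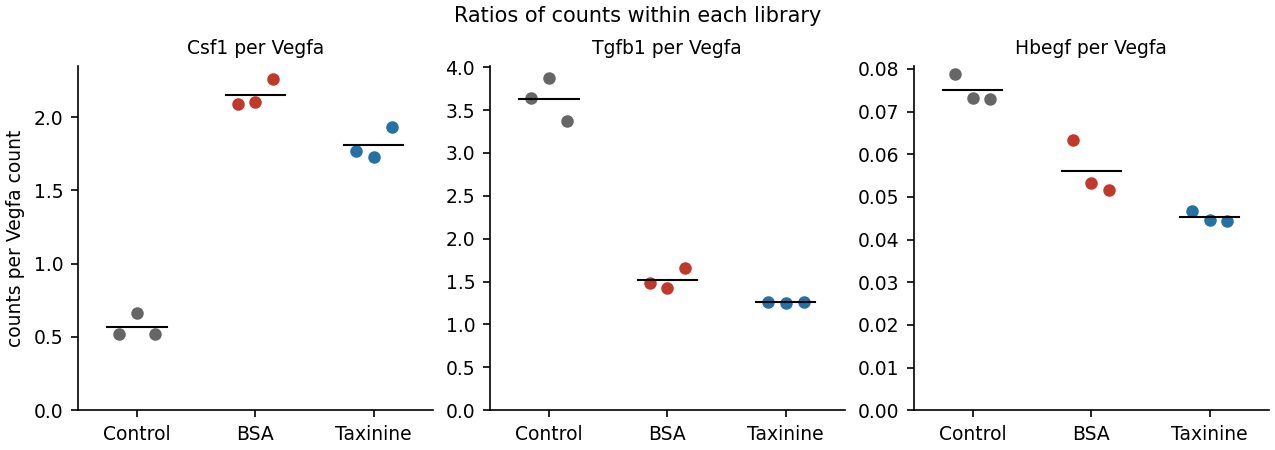
Counts of Csf1, Tgfb1 and Hbegf per count of Vegfa in each library. Each point is 1 library, bars are group means, and the axes start at 0. For all 3 ratios the Taxinine points lie below the BSA points, whereas Control lies below both for Csf1 and above both for Tgfb1 and Hbegf.

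Against untreated cells, all 5 genes were still called higher in Taxinine, where 15.9% of all genes were, and 33.1% were called in either direction. The log2 fold changes were 3.55 ± 0.06 for Csf1 (adjusted p = 1.53e-39), 1.87 ± 0.05 for Vegfa (1.85e-32), 2.39 ± 0.58 for Areg (0.001), 1.14 ± 0.11 for Hbegf (7.55e-12) and 0.34 ± 0.04 for Tgfb1 (3.47e-09). This comparison shares its Control libraries with BSA against Control and its Taxinine libraries with Taxinine against BSA. In all 5 genes every Taxinine library was above every Control library, which held for 20.9% of genes. Under plain totals the Tgfb1 change was 0.14 (adjusted p = 0.00315).

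The surrounding pathways are described from lists of ligands, receptors, processing enzymes and targets, 141 genes in all, of which the measured ones are counted. Counts below are genes called, and the lists include the members. Over all genes, 16.2% were called higher and 17.8% lower in BSA against Control, 34.0% in either direction. In Taxinine against BSA 2.86% were called higher and 4.12% lower, 6.98% in either direction. List counts are to be read beside these shares. In the colony-stimulating factor list, 3 of 6 measured genes rose with antigen and none fell (list median 0.20, all genes 0.00), and with taxinine Csf1 was the 1 gene called. Csf2, the granulocyte-macrophage factor, had 0, 2 and 0 reads in Control and 54, 47 and 62 in BSA (adjusted p = 6.68e-15). It had 23, 20 and 45 reads in Taxinine (-0.71 ± 0.23 against BSA, adjusted p = 0.0541). Csf1r, the receptor for Csf1, averaged 0.758, 0.869 and 1.02 CPM in Control, BSA and Taxinine with overlapping libraries and no call. Csf2rb, the shared receptor chain for interleukin 3, was called at 0.11 ± 0.04 in BSA against Control, but its direction turned to -0.11 under plain totals.

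Among 8 measured ligands and receptors of the VEGF and platelet-derived growth factor families, Vegfa and Vegfc rose, and Pgf and Pdgfa fell with antigen (list median -0.13). Vegfc, a lymphatic growth factor, changed by 0.23 ± 0.08, and its call and its direction were lost under plain totals (0.00). Pgf fell by 1.25 (adjusted p = 0.00789) from 1.44 ± 0.257 CPM, and Pdgfa fell by 0.71 (adjusted p = 0.00527) from 4.17 ± 0.697 CPM. Each of these 2 calls was lost without 1 library, BSA replicate 2 for Pgf and Control replicate 3 for Pdgfa. The coreceptors Nrp1 and Nrp2 were at 1.11 ± 0.0949 and 0.656 ± 0.295 CPM in BSA and were not called. None of the 8 was called with taxinine.

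Of 12 measured genes that act on Vegfa expression, 5 rose and 2 fell with antigen (list median 0.05, all genes 0.00). Zfp36, Zfp36l1 and Zfp36l2 encode proteins that bind AU-rich elements and destabilise mRNAs, that of Vegfa among them. Zfp36 rose by 2.38 ± 0.07 (adjusted p = 8.85e-29), Zfp36l1 by 2.20 ± 0.05 (8.02e-33) and Zfp36l2 by 1.38 ± 0.04 (4.08e-28). Egln3, a prolyl hydroxylase of hypoxia-inducible factors, rose by 0.99 ± 0.10, and Hif1a itself by 0.28 ± 0.05, a call lost under plain totals (0.05). Vhl, which marks these factors for degradation, fell by 0.96 (adjusted p = 5.31e-15), and Hif1an, an inhibitor of their activity, fell by 0.48 (3.65e-09).

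With taxinine, Zfp36l2 fell by 0.44 (adjusted p = 5.31e-10), from 706 ± 43.3 to 520.4 ± 17.2 CPM, while Zfp36 was at 73.2 ± 3.50 and 74.2 ± 6.39 CPM without a call. Zfp36l1 fell by 0.18 (adjusted p = 0.00885), a call lost without BSA replicate 1 (0.0641) or Taxinine replicate 3 (0.0624). Hif1an rose by 0.27 ± 0.06 (adjusted p = 0.00276).

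Of 5 measured EGF family ligands, Hbegf and Areg were the 2 called with antigen (list median 0.24), and none was called with taxinine. Tgfa, another ligand of Egfr, was at 3.72 ± 0.353 CPM in Control, 4.37 ± 0.419 in BSA and 2.93 ± 0.187 in Taxinine (-0.58 ± 0.19 against BSA, adjusted p = 0.0597). The receptors Egfr, Erbb2 and Erbb4 were not among the deposited genes, so no level is given for them. Erbb3 fell by 0.69 with antigen (adjusted p = 0.000141), from 7.60 ± 0.172 to 4.71 ± 0.438 CPM, and was at 6.24 ± 0.805 CPM in Taxinine (0.40 ± 0.16, adjusted p = 0.124). Errfi1, an intracellular inhibitor of EGF receptor kinases, rose by 2.43 ± 0.08 with antigen (adjusted p = 3.28e-28). It was at 15.4 ± 1.43 CPM in Control, 83.0 ± 9.99 in BSA and 91.1 ± 2.12 in Taxinine, without a call between the last 2. Without BSA replicate 1 that difference was called (0.24, adjusted p = 0.0206). In the whole receptor and inhibitor list 2 of 9 rose and 2 fell with antigen (list median 0.00), and none was called with taxinine. The others were Socs4, which fell by 0.29 (adjusted p = 4.94e-05), and Cbl, whose 0.16 ± 0.06 turned to -0.07 under plain totals and was not called without any 1 of 7 of the 9 libraries.

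Among 15 measured sheddases and processing proteases, 5 rose and 1 fell with antigen (list median 0.25), not far from the 34.0% called over all genes. Furin, the convertase that cleaves the Tgfb1 precursor, rose by 1.67 ± 0.04 (adjusted p = 6.46e-34), from 1829 ± 81.5 to 5829 ± 128 CPM. Rhbdf2, which carries Adam17 to the cell surface, and the sheddase Adam8 each rose by 0.67, with SE 0.05 and 0.06. Mmp9 rose by 0.84 ± 0.26 (lost without Control replicate 2, adjusted p = 0.0548) and Adam15 by 0.29 ± 0.09 (lost under plain totals, 0.07, and without BSA replicate 2, adjusted p = 0.0933). Adam17, the principal sheddase of Hbegf and Areg, fell by 0.17 (adjusted p = 0.0101), a call lost without Control replicate 3 (0.0983) or BSA replicate 3 (0.0724). With taxinine Furin fell by 0.17 (adjusted p = 0.00171) to 5188 ± 18.4 CPM, and it was the 1 call of the list.

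**Figure D5:**
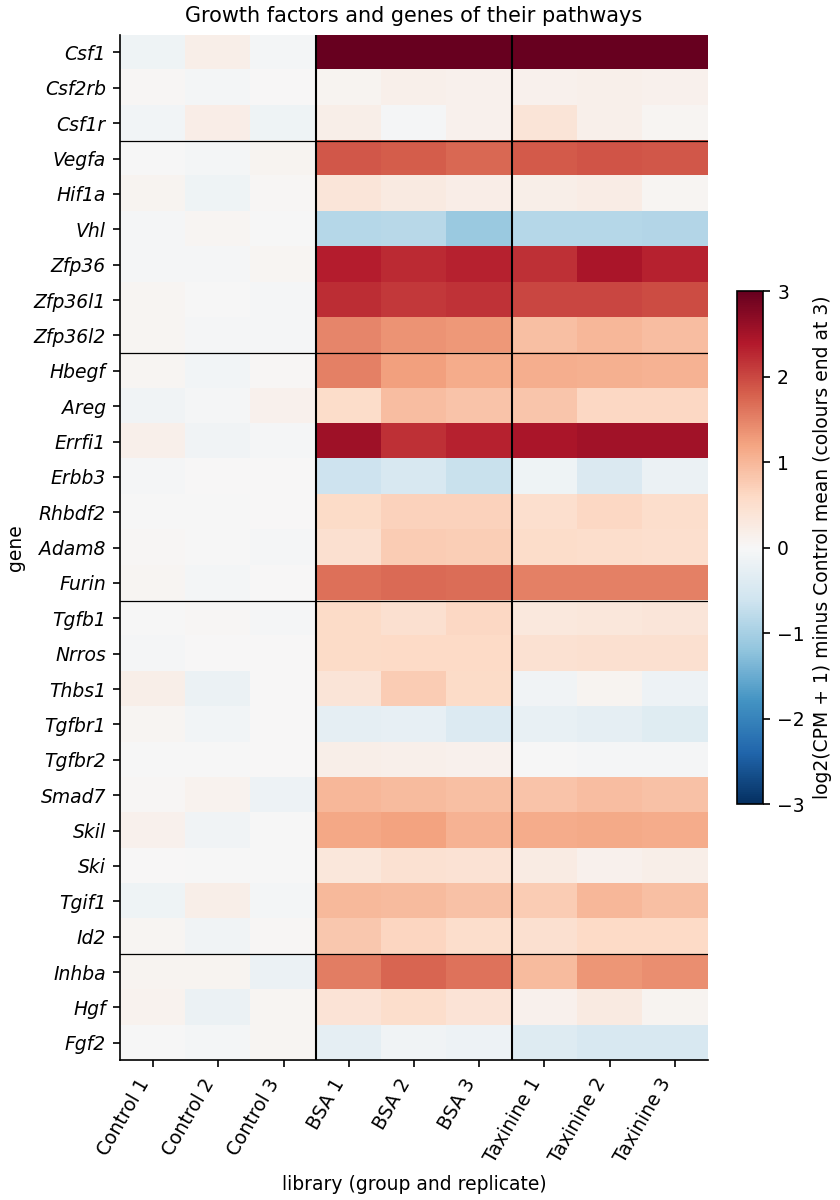
Growth factors and genes of their pathways across the 9 libraries. Colour gives log2(CPM + 1) minus the Control mean of the gene, ending at 3, and horizontal lines separate the Csf1, Vegfa, EGF family, Tgfb1 and other growth factor groups. Csf1, Errfi1 and Zfp36 are among the strongest rows in all 6 activated libraries, and Vhl lies below its Control mean in each of them.

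For Tgfb1, the list of ligands and of genes for latency and activation had 3 rises and 2 falls among 8 measured genes with antigen (list median 0.18). Besides Tgfb1, these were Nrros, which holds latent Tgfb1 on myeloid cells (0.59 ± 0.04, adjusted p = 1.76e-16), and Thbs1, which can activate it (0.60 ± 0.10, adjusted p = 4.67e-06). Itgb6, a subunit of an activating integrin, fell by 0.69 (adjusted p = 0.000974). Lrrc32, which tethers latent Tgfb1 on regulatory T cells and platelets, had 4, 2 and 8 reads in Control and 0, 1 and 0 in BSA, and its call (adjusted p = 0.0283) was lost without Control replicate 3 (0.167), BSA replicate 1 (0.114) or BSA replicate 3 (0.0908). Lrrc32 also had no call in DESeq2, which gave it no adjusted p, or with edgeR's filterByExpr. With taxinine 3 of the 8 fell and none rose, namely Tgfb1, Thbs1 and Ltbp3. Thbs1 fell by 0.67 (adjusted p = 2.91e-05), from 21.7 ± 3.04 to 13.6 ± 1.31 CPM, next to 14.3 ± 1.79 in Control. Ltbp3, which binds latent complexes in the matrix, fell by 0.24 (adjusted p = 0.00986), a call lost without BSA replicate 3 (0.0608) or Taxinine replicate 2 (0.0882). Nrros was at 416 ± 5.69 CPM in BSA and 382 ± 3.50 in Taxinine (-0.12 ± 0.04, adjusted p = 0.0509). Among other alternatives, it was called lower in DESeq2 (-0.13, adjusted p = 0.0171) and without Control replicate 1 (0.048) or Control replicate 2 (0.0342).

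Of 15 measured receptors, SMADs and inhibitors, 4 rose and 1 fell with antigen (list median 0.15), near the 34.0% called over all genes. The rises included Skil (1.14 ± 0.05), Smad7 (0.97 ± 0.06) and Ski (0.41 ± 0.05), all of which restrain SMAD signalling. Tgfbr1 fell by 0.31 (adjusted p = 2.55e-07). Tgfbr2 was called at 0.15 ± 0.04, a direction that turned to -0.07 under plain totals. With taxinine 2 of the 15 fell, Ski by 0.23 (adjusted p = 0.000759) and Tgfbr2 by 0.18 (adjusted p = 0.00491), whereas Smad7 was at 60.3 ± 1.81 and 58.0 ± 1.05 CPM.

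The target list of Tgfb1 signalling, 11 genes measured, had 5 rises and 2 falls with antigen (list median 0.12). Cdkn2b, an inhibitor of cell cycle kinases, rose by 1.60 ± 0.22, Tgif1 by 0.95 ± 0.07, Id2 by 0.66 ± 0.05, and Mcpt1 by 0.22 ± 0.09, the last at 0.00 under plain totals and not called without any 1 of 8 of the 9 libraries. Id1 and Id3, which many cells switch with bone morphogenetic proteins, fell by 1.09 and 1.00.

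Among 12 other measured growth factors, Inhba, Hgf and Gdf15 rose and Fgf2 fell with antigen (list median 0.24), near the 34.0% called over all genes. Inhba, the activin A subunit, had 3, 3 and 0 reads in Control and 30, 35 and 27 in BSA (adjusted p = 2.62e-10). It had 10, 19 and 26 reads in Taxinine, whose libraries differ in depth. The fitted Inhba difference from BSA was -0.56 ± 0.29 and was not called (adjusted p = 0.275). Hgf rose by 0.46 ± 0.07 and, with taxinine, fell by 0.31 (adjusted p = 0.00455), a call lost without Taxinine replicate 3 (0.0652). Fgf2 fell by 0.17 with antigen (adjusted p = 0.0225), lost without Control replicate 3 (0.114) or BSA replicate 1 (0.167), and by a further 0.29 with taxinine (0.00255). Gdf15 changed by 0.47 ± 0.16 with antigen, not called under plain totals (0.24), without Control replicate 3 (adjusted p = 0.0546) or without BSA replicate 1 (0.0755).

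Against Control, several of the smaller changes named above moved by over 1.5 times under plain totals. The rises of Rhbdf2, Adam8, Nrros, Thbs1, Ski, Id2 and Hgf with antigen were then 0.44, 0.45, 0.37, 0.38, 0.18, 0.43 and 0.23. The falls of Tgfbr1, Socs4, Fgf2 and Adam17 were then -0.54, -0.51, -0.40 and -0.40.

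The genes whose pattern over the 9 libraries was most like that of each member were found by Pearson's r of log2(CPM + 1) among 8932 genes, as a description. All 9 libraries share a split into an untreated and an activated cluster, which r includes. Because the genes were picked on these same libraries, changes alike to those of the member follow from the choice and add no evidence. For Csf1 these were Tagap, Nfkbiz and Tnfaip2, each at r = 0.9996. All 3 rose with antigen, by 3.66 ± 0.07, 2.71 ± 0.05 and 2.46 ± 0.05, and with taxinine they differed by -0.20, -0.16 and -0.16 from BSA, calls that were lost under several alternatives. For Vegfa they were Btg2 and Plek (r = 0.9993 each) and Spty2d1 (0.9992), which rose by 3.27, 2.29 and 1.73 with antigen. With taxinine they differed by 0.14, 0.08 and 0.02 from BSA and were not called in the reported test. Btg2 was called higher under plain totals (0.17, adjusted p = 0.0264) and in limma (0.17, 0.0411). It was also called without Control replicate 2 (0.14, 0.0466) or BSA replicate 1 (0.21, 0.00937).

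For Tgfb1 the nearest were Prkab1 (0.9875), Uck2 (0.9865) and Ier3 (0.9864). These rose by 0.85, 0.92 and 0.62 with antigen and fell by 0.31, 0.28 and 0.26 with taxinine. For Hbegf they included Eif1a (0.9948) and Nop58 (0.9929). For Areg, whose values rest on few reads, they were Qpctl (0.9816), Phf5a (0.9743) and Rrp12 (0.9729).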

How the data were processed

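Messenger RNA was sequenced with paired reads from 3 Control, 3 BSA and 3 Taxinine samples of cultured mouse mast cells. Reads were aligned with STAR 2.7.0f, and limma 3.11 and the builds mm10 and GRCm38 are named, per the submitters' processing notes. For the counting program, annotation and use of strand, the answer is not given in the sources used here. Whole-number counts for 15109 genes make up the count table deposited by the authors, whose name speaks of normalised values, and they were used as unscaled counts. The deposited log2 table equals log2(CPM + 1) from plain library totals to within 5.0e-05. The tables hold no gene with a count in fewer than 4 libraries.

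From the counts, edgeR 4.0.16 in R 4.3.3 was fitted once over all 9 libraries with TMM factors, no replicate term and no further filter. The p-values of its quasi-likelihood test were adjusted by the Benjamini-Hochberg method over all 15109 genes, with 0.05 as the threshold for a call. The biological coefficient of variation was 3.9%. Alternatives were plain totals, relative log expression (RLE) factors, DESeq2 1.42.0, limma 3.58.1 on the deposited log2 values, edgeR's filterByExpr, a fit of 2 groups only, a replicate block and each library left out. The code was tested on simulated data. Total counts were 8975371 to 14116976 per library, so that 3 counts, the floor used, correspond to 0.213 to 0.334 CPM. The exact intervals on summed Areg counts and the floors cover counting error only, and the intervals of fold changes come from the fit and include the variation between libraries. Within a group, libraries differed by more than sampling noise, and each was counted as a sample.

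Exon lengths and positions came from GENCODE M21, which holds 15106 of the identifiers. Named genes are the members, up to 4 genes with the smallest p in each of the 10 pathway lists for each of BSA against Control and Taxinine against BSA, the members' receptors, and the 3 genes most like each member, with predicted genes left out, among genes with a mean log2(CPM + 1) of at least 3. Adam17, Id1, Egln3, Lrrc32 and the marker genes Lyz2, Cx3cr1, Adgre1, Cd68, Mertk, C1qb and C1qc were named after their values were seen. A few genes that meet these rules are not reported here. Members and lists were chosen with earlier results of these data known, and no list was tested. For motifs, the 250 bases before each RefSeq start were searched on both strands.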

Additional observations from a re-analysis of the deposited data

How the results depend on the processing

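Of 239 values of the 5 members under the alternatives, 234 kept direction and call, 4 lost the call, 1 gained it and 0 reversed. In Taxinine against BSA, Csf1 lost its call in DESeq2 (-0.19) and limma (-0.16), and leaving out each library gave -0.24 to -0.16. Leaving out each library gave -0.34 to -0.13 for Hbegf in that comparison. The cause was not tested. Genes called in BSA against Control numbered 5144, but 7977 under plain totals and 7852 in limma on the deposited values, which use plain totals, and the share called higher was then 13.6% in both, against 47.6%. In Taxinine against Control it was 15.0% under plain totals against 48.1%. In Taxinine against BSA 1055 genes were called, 616 to 1281 with each library left out (659, 616 and 699 without Taxinine replicates 1, 2 and 3), of which 40.9% were higher, against 57.6% under plain totals and 59.2% in limma. Other named genes were counted without Taxinine against Control, and entered where called in the reported test. Uncalled results entered only for receptors in BSA against Control and, in Taxinine against BSA, for Errfi1, Smad7, Nrros, Btg2, Plek, Erbb3 and Hif1a. Together they gave 1308 values. Of these, 1216 kept direction and call, 70 lost it, 11 gained it and 11 reversed. Only the uncalled results entered could gain a call, so the number of gains is limited by this choice. The gains were of Nrros, Btg2 and Errfi1. In Taxinine against Control, outside this count, the called changes of Csf2rb, Csf2rb2, Ski, Smad4 and Hif1a also reversed under plain totals and in limma. The reversals in BSA against Control came under plain totals and in limma, respectively, for Csf2rb (-0.11 and -0.11), Csf1r (-0.03 and -0.01), Cbl (-0.07 and -0.06), Tgfbr2 (-0.07 and -0.07) and Mcpt1 (0.00 and -0.01), and under plain totals for Vegfc (0.00). DESeq2 gave no adjusted p for Areg in Taxinine against BSA, nor for Lrrc32 and Tgfbr3 in BSA against Control. Replicate numbers did not pair the samples (9 pairs, r from -0.245 to 0.136, 2 of them over 0.1). With a replicate block 5078, 1093 and 4972 genes were called in BSA against Control, Taxinine against BSA and Taxinine against Control, and Csf1 in Taxinine against BSA was -0.19 (adjusted p = 0.00771); of the named genes, Mcpt1 in BSA against Control lost its call (0.22, adjusted p = 0.055). With 7 to 36 summed counts per group, depth limits what can be said of Areg.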
